A study of Homo sapiens with 6 samples.

Results

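Nuclear-encoded subunits of oxidative phosphorylation (OXPHOS) were read out in breast cancer stem cells (BCSC) and in the cells left after the sort (non-BCSC). The subunits were taken as the autosomal protein-coding genes whose symbols match the NDUFA, NDUFB, NDUFC, NDUFS and NDUFV families of complex I, SDHA to SDHD of complex II, the UQCR genes of complex III, COX4 to COX8 of complex IV, and ATP5F, ATP5M and ATP5P of complex V. This gave 85 of the 61015 genes on file, with 37 in complex I, 4 in complex II, 9 in complex III, 16 in complex IV and 19 in complex V. The choice by symbol used no measured value.

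Oxidative phosphorylation takes place in the inner mitochondrial membrane. Complex I takes electrons from NADH and complex II takes them from succinate, both hand them to ubiquinone, and complex III passes them by way of cytochrome c to complex IV, which reduces oxygen. Complexes I, III and IV pump protons as they do so, and complex V, the ATP synthase, lets the protons back in to make ATP. Complexes I, III, IV and V each combine nuclear-encoded subunits with a few made from mitochondrial DNA, whereas complex II is encoded in the nucleus alone. In breast cancer stem cells the use of OXPHOS against glycolysis is a recurring question, and drug resistance is one of its settings.

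All 6 libraries came from MDA-MB-231 cells selected to grow in paclitaxel (PTX). This established human line is a triple-negative breast cancer. The cells were separated by flow cytometry on aldehyde dehydrogenase (ALDH) activity, with dead cells gated out by propidium iodide, and total RNA was sequenced for long non-coding RNA with random primers. The titles of the samples gave 3 BCSC and 3 non-BCSC libraries, while the cell type label was Breast cancer stem cells for all 6. The study gives BCSC as ALDH+ and non-BCSC as ALDH-, both from PTX-resistant MDA-MB-231 cells. The titles name the line and the resistance for BCSC only, and neither gives ALDH status. A fraction of 1 line stands here for a stem cell state, and no source says that the replicates came from separate cultures, so p-values measure only the spread between these libraries.

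The gene totals ran from 15889435 to 21152264 counts in BCSC and from 9872974 to 12221860 in non-BCSC, so that a count of 0 allows up to 3 counts, or 0.148 to 0.288 CPM (counts divided by the TMM library size). Such limits cover counting error only. Markers of the line were present in all libraries (VIM, CD44, FN1, AXL, CAV1 and ANXA1). In BCSC 4 of these 6 were higher at an adjusted p under 0.05 (66.7%, edgeR, against 15.3% of all genes tested). Aldehyde dehydrogenase genes did not follow the sort in 1 direction: ALDH1A1 had counts of 0, 5 and 6 in the BCSC libraries against 38, 28 and 32 in non-BCSC (log2 fold change −3.63, SE 1.19, adjusted p = 0.0446, edgeR), and ALDH1A3 had 519, 467 and 553 in the BCSC libraries against 285, 192 and 126 in non-BCSC (adjusted p = 0.0577, edgeR). Both were chosen after their values were seen. Of 9 markers of luminal breast, blood and muscle cells, 4 had enough counts to be tested. The summed level of the 9 was 16.9 to 25.2 CPM in BCSC and 40.5 to 71.6 CPM in non-BCSC. ACTA1 was at 0 in all BCSC libraries and KRT19 at 0 in 5 of 6 libraries. Of the 4 tested, ESR1, PGR and PTPRC lay lower in every BCSC library. GATA3 went the other way, at 14.5, 12.2 and 16.8 CPM in BCSC and 9.82, 8.48 and 10.9 CPM in non-BCSC (adjusted p = 0.148, edgeR). The leukocyte marker PTPRC had counts of 4, 6 and 19 in the BCSC libraries against 160, 256 and 216 in non-BCSC. Olfactory receptor genes, which are used in sensory neurons and served as a measure of background, moved the same way, with 0.966 to 3.0 counts per kb in BCSC and 7.85 to 14.4 in non-BCSC. That background would make up a median of 4.15% of a subunit gene's count in non-BCSC, and the part of either in the results below was not tested except where a value with the background removed is given.

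To determine whether the subunit genes differed between the fractions, counts were summed per gene and tested with edgeR over all 20442 genes that passed its filter on low counts. Of the 85 subunit genes, 76 passed, and 8 were higher and 7 lower in BCSC at an adjusted p under 0.05. The 15 made up 19.7% of the 76, against 15.3% higher and 14.6% lower among all genes tested (29.9% in all). With a fold above 2 as well, 4 subunit genes were higher (NDUFA8, COX8A, COX6B1 and ATP5MC2) and 2 lower (COX6C and ATP5PF), where all genes gave 8.85% and 11.3%. BCSC and non-BCSC values did not overlap in 30 of the 76 (39.5%), against 52.1% of all genes. In edgeR with these settings the shares of subunit genes that differed were below those of all genes by each of these measures, but the order depended on the processing. At an adjusted p under 0.05 the subunit genes stood above all genes with GC content and length corrected (43.4% against 35.2%) and without a count filter (19.5% against 14.7%, where many genes near 0 counts enter the background), and close to them with the background removed (28.9% against 27.8%) and on protein-coding transcripts only (21.1% against 19.8%). With DESeq2 the share was 23.1% against 28.5% of the genes given an adjusted p.

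Summed over all subunit genes, the fractions overlapped. The summed level was 4551, 4072 and 3852 CPM in BCSC and 4622, 4204 and 3670.4 CPM in non-BCSC. The libraries of the fractions interleave. The means were 4158 ± 357 CPM in BCSC and 4165 ± 477 CPM in non-BCSC (SD, n = 3), a ratio of 0.998. The median log2 fold change over the 76 genes, BCSC over non-BCSC, was −0.040, beside −0.050 over all genes tested. All subunit genes are protein coding, and over the 14144 protein-coding genes tested the median was higher, at 0.15. Of those protein-coding genes, 33.7% had an adjusted p under 0.05 (edgeR), against 19.7% of the subunit genes. The closeness of the medians thus held for all genes tested and not for protein-coding genes, and the difference was not tested. By complex the median was −0.022 in complex I, 0.0078 in II, −0.11 in III, 0.13 in IV and −0.16 in V. In bulk RNA a share of cells with more of a transcript and more of it per cell cannot be told apart.

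**Figure D1:**
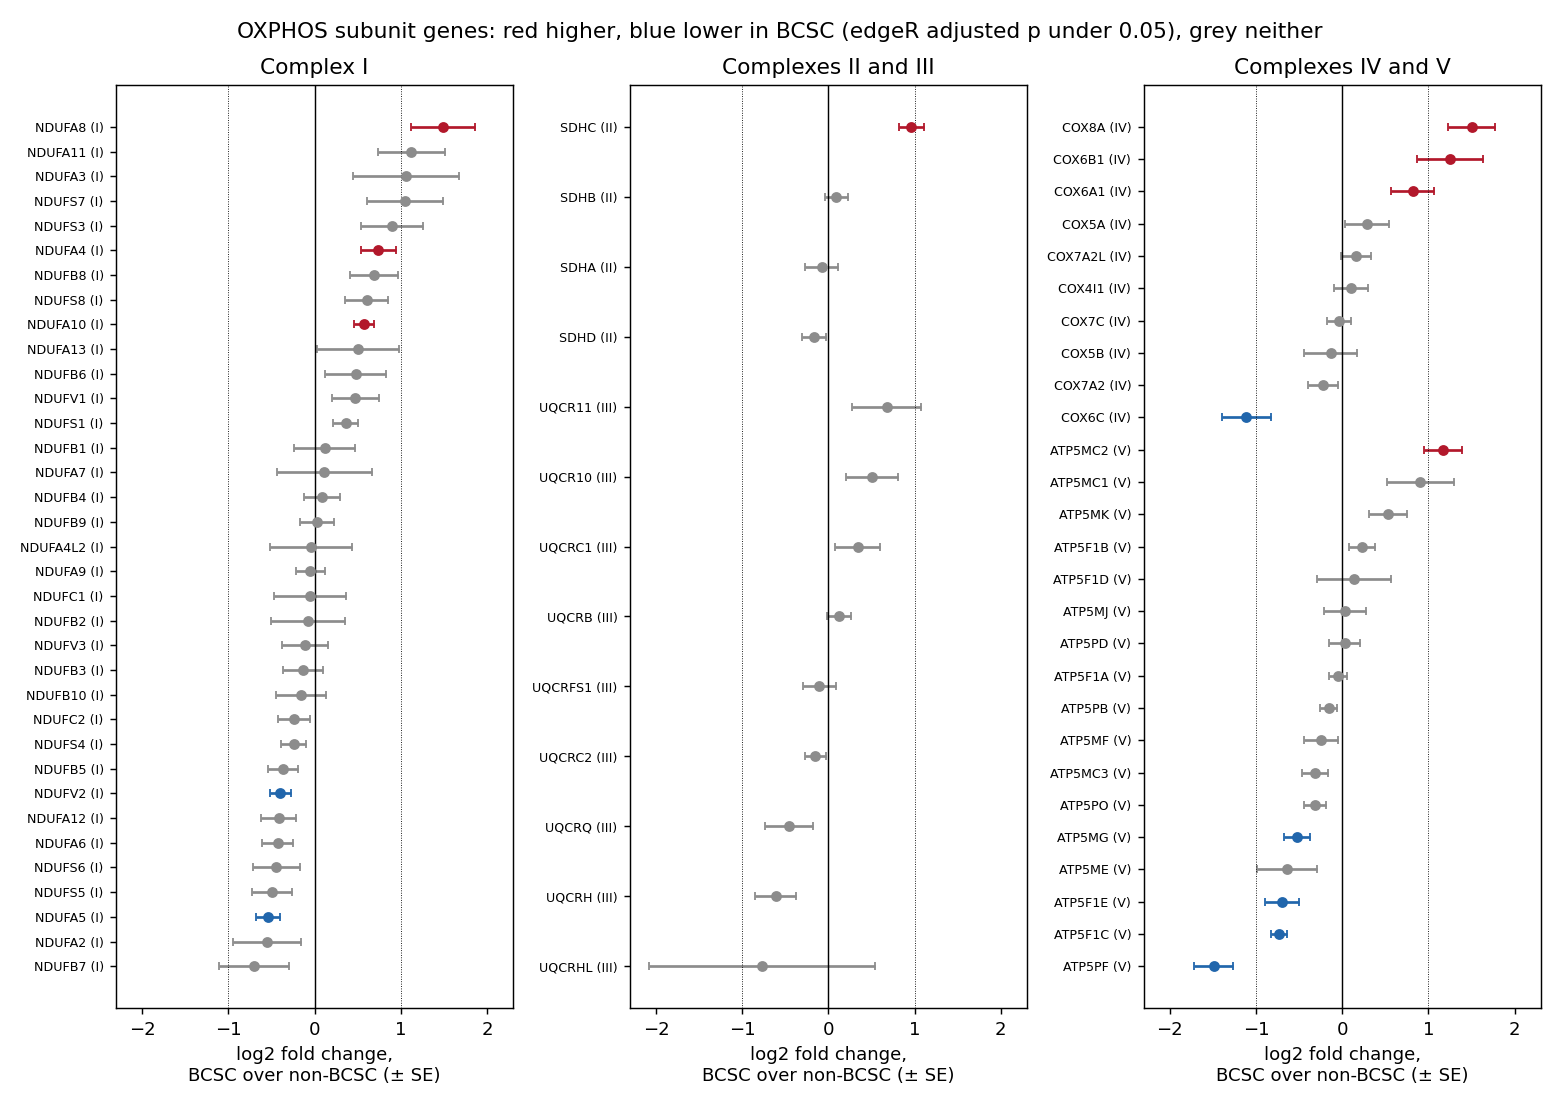
Log2 fold change (BCSC over non-BCSC, x axis, ± SE from edgeR) of tested OXPHOS subunit genes, in panels by complex and ordered by value. Red points are the 8 genes higher and blue points the 7 genes lower in BCSC at an adjusted p under 0.05, and dotted lines mark a 2-fold change. Higher and lower genes stand together in complexes I, IV and V, and complex III has none.

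The promoters of the genes that passed both thresholds are shown to set the letters upstream of genes of the same machinery that moved in opposite directions side by side. Each is the 250 bases before the transcription start (RefSeq, GRCh38.p14), printed 5′ to 3′ on the strand of the gene, and 66 of the 85 members had an entry. Capitals mark letters found on either strand for the core of nuclear respiratory factor 1 (NRF1, GCATGCGC), the core bound by ETS factors such as GABP (CCGGAAGT) and the YY1 core (AAGATGGC). COX6C is named only. ATP5PF was lower in BCSC, and the others were higher.
ATP5PF (chr21:25735055-25735304, minus strand): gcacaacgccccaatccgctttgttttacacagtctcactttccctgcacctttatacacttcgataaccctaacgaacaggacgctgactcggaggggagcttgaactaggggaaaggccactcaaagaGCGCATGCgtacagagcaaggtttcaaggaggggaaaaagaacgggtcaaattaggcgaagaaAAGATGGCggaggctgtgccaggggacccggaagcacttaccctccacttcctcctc
ATP5MC2 (chr12:53676084-53676333, minus strand): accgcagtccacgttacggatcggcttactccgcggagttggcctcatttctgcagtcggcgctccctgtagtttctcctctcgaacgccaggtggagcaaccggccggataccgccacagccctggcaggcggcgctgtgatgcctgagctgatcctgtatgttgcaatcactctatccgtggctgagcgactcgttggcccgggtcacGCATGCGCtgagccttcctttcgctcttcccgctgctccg
COX8A (chr11:63974370-63974619, plus strand): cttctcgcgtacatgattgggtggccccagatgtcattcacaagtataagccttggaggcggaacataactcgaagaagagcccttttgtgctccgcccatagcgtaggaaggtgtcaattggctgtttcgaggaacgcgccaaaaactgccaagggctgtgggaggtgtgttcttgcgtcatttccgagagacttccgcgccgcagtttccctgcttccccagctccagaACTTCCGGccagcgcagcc
COX6B1 (chr19:35648073-35648322, plus strand): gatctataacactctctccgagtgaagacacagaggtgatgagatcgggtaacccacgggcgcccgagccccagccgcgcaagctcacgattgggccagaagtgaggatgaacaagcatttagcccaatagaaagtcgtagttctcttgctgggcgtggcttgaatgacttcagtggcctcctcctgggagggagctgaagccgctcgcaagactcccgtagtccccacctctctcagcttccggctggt
NDUFA8 (chr9:122159780-122160029, minus strand): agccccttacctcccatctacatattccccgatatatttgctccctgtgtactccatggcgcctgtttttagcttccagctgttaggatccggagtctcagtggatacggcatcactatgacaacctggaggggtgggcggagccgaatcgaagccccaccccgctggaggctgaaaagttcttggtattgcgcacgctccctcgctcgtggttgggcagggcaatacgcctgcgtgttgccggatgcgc
ATP5PF holds the NRF1 letters 120 bases before the start, on the strand opposite to the printed one, and the YY1 letters 57 bases before it, on the printed strand. ATP5MC2 holds the NRF1 letters 40 bases before the start, COX8A holds the ETS letters 19 bases before it, on the strand opposite to the printed one, and in COX6B1 and NDUFA8 none of the 3 was found in this window. Among all members with an entry, the NRF1 letters were found in 12 of 66 members (18.2%) and in 2.81% of all 27305 promoters. A longer palindrome that contains these letters and was searched first was in 3 of 66 members (4.55%) and in 1.13% of all 27305 promoters. The ETS letters were found in 10 of 66 members (15.2%) and in 3.64% of all 27305 promoters, and the YY1 letters in 1 of 66 members (1.52%) and in 1.37% of all 27305 promoters. For comparison, TATAAA was in 6 of 66 members (9.09%) and in 11.1% of all 27305 promoters, and CCAAT in 22 of 66 members (33.3%) and in 33% of all 27305 promoters. The 12 members with the NRF1 letters included genes higher (COX6A1 and ATP5MC2) and lower (ATP5F1C and ATP5PF) in BCSC. A match describes the letters and does not show that a factor was bound.

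In complex I, 3 of 36 tested genes were higher and 2 were lower in BCSC (13.9%, against 29.9% of all genes tested). The summed level was 1402 ± 113 CPM in BCSC and 1357 ± 164 CPM in non-BCSC. NDUFA8 (chromosome 9), an accessory subunit with twin CX9C motifs that is imported into the intermembrane space, was measured at 25.1, 14.7 and 22.5 CPM in BCSC and 10.8, 6.89 and 4.51 CPM in non-BCSC. Each BCSC library lay above each non-BCSC library, with means of 20.8 ± 5.43 against 7.4 ± 3.18 CPM (log2 fold change 1.48, SE 0.37, adjusted p = 0.0165, edgeR). NDUFA10 (chromosome 2), an accessory subunit on the matrix side, was measured at 117, 116 and 123 CPM in BCSC and 88, 76.1 and 74.9 CPM in non-BCSC. The fractions did not overlap, and the mean was 1.49 times higher in BCSC (log2 fold change 0.58, SE 0.12, adjusted p = 0.00732, edgeR). NDUFA4 (chromosome 7) carries a complex I symbol but is known as a subunit of complex IV, and was measured at 40.4, 33.3 and 35.9 CPM in BCSC and 25.2, 22.7 and 17.7 CPM in non-BCSC. It was higher in 3 of 3 BCSC libraries (log2 fold change 0.74, SE 0.21, adjusted p = 0.0244, edgeR).

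Lower in BCSC were NDUFA5 and NDUFV2. NDUFA5 (chromosome 7), an accessory subunit of the peripheral arm, was measured at 66.5, 80.5 and 94.2 CPM in BCSC and 117, 121 and 112 CPM in non-BCSC (log2 fold change −0.54, SE 0.14, adjusted p = 0.020, edgeR). NDUFV2 (chromosome 18), a core subunit that carries an iron-sulfur cluster next to the NADH site, was measured at 73.8, 66.5 and 69 CPM in BCSC and 93.3, 92.7 and 89.8 CPM in non-BCSC (log2 fold change −0.40, SE 0.12, adjusted p = 0.0308, edgeR). For both genes all BCSC libraries lay below all non-BCSC libraries, and the change was less than 2-fold. When GC content and length were corrected, the direction of both turned, to 0.76 for NDUFA5 (adjusted p = 0.0202, edgeR) and 0.36 for NDUFV2 (0.177). When only transcripts annotated as protein coding were summed, NDUFA10 turned to −0.37 (adjusted p = 0.228, edgeR). Retained-intron transcripts held 53.3% of the NDUFA10 count in BCSC and 38.1% in non-BCSC.

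Most complex I calls were lost when 1 library was left out. NDUFA8 did not pass without BCSC library 1 or non-BCSC library 2 (adjusted p 0.056 to 0.0687, log2 fold change 1.33 to 1.48), and NDUFA4 did not pass without BCSC library 1, 2 or 3 or non-BCSC library 2 or 3 (adjusted p 0.0513 to 0.0954, log2 fold change 0.63 to 0.83). NDUFA5 was not called without BCSC library 1 or 2 or non-BCSC library 1, 2 or 3 (adjusted p 0.0552 to 0.0916, log2 fold change −0.41 to −0.55). NDUFV2 was not called without BCSC library 1, 2 or 3 or non-BCSC library 1, 2 or 3 (adjusted p 0.0669 to 0.163, log2 fold change −0.33 to −0.44). NDUFA10 was called with each library left out. With the background removed, NDUFA10 (0.34, adjusted p = 0.0529, edgeR), NDUFA8 (1.35, 0.0568) and NDUFA4 (0.55, 0.0858) were not called. The core subunits NDUFS1, NDUFS3, NDUFS7, NDUFS8 and NDUFV1, chosen after their values were seen, did not pass the test. Their log2 fold changes were 0.36 (adjusted p = 0.0863), 0.90 (0.0847), 1.05 (0.0976), 0.60 (0.0918) and 0.47 (0.206) in edgeR. NDUFV2, also a core subunit, passed as given above.

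Complex II, succinate dehydrogenase, also works in the citric acid cycle and is the smallest of the 5. Its summed level was 402, 359 and 353 CPM in BCSC and 324, 339 and 265 CPM in non-BCSC, so that the lowest BCSC library stood above the highest non-BCSC library, with means of 372 ± 26.7 CPM in BCSC and 309 ± 39.2 CPM in non-BCSC (ratio 1.2, not tested). Of its 4 subunits, only SDHC passed the test (25%, against 29.9% of all genes tested). The gap in the sum rests on SDHC, since the sum of the other subunits overlapped between the fractions. SDHC (chromosome 1), a membrane anchor that holds part of the ubiquinone site, was measured at 153, 142 and 132 CPM in BCSC and 71.1, 86.4 and 61.6 CPM in non-BCSC. The lowest BCSC library stood above the highest non-BCSC library, and the means were 142 ± 10.4 against 73 ± 12.5 CPM, or 1.95 times higher in BCSC (log2 fold change 0.96, SE 0.14, adjusted p = 0.00202, edgeR). SDHD (chromosome 11), the other membrane anchor, was measured at 65.2, 62.8 and 78.5 CPM in BCSC and 76.4, 82.5 and 73 CPM in non-BCSC, with overlapping fractions (log2 fold change −0.17, SE 0.14, adjusted p = 0.382, edgeR). SDHA (chromosome 5), the flavoprotein that oxidises succinate, was measured at 85.4, 69.1 and 59.6 CPM in BCSC and 87.9, 80.1 and 57.6 CPM in non-BCSC (log2 fold change −0.076, SE 0.19, adjusted p = 0.788, edgeR). SDHB (chromosome 1), the iron-sulfur subunit, was measured at 98.6, 85.3 and 83 CPM in BCSC and 88.3, 89.8 and 72.5 CPM in non-BCSC (log2 fold change 0.091, SE 0.14, adjusted p = 0.639, edgeR). In SDHA and SDHB the fractions overlapped as well. Whether SDHC differed from SDHD in its change was not tested.

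SDHC kept its direction and an adjusted p under 0.05 in all 15 alternative analyses, with log2 fold changes from 0.68 to 1.41. Most of its counts fell on 1 coding transcript, SDHC-202, with counts of 2653, 1742 and 1856 in BCSC against 648, 909 and 529 in non-BCSC. Pseudogenes of SDHA drew counts equal to 10.8% of those of the gene itself, whereas for SDHC the share was 0.603%. The level of SDHA may be less certain for this, by an amount that was not measured. With GC content and length corrected, 3 of the 4 subunits were called higher in BCSC, SDHC together with SDHB (log2 fold change 0.70, adjusted p = 0.0265, edgeR) and SDHD (1.29, 0.00147). That setting called 43.4% of the subunit genes of all complexes and 35.2% of all genes. It also moved the median of the subunit genes from −0.040 to 0.41. With the background removed, SDHD was called lower instead (−0.45, adjusted p = 0.0471, edgeR).

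In complex III, 0 of 9 genes passed in edgeR, against 29.9% of all genes tested. At an unadjusted p under 0.05 there was 1, and DESeq2 called 1 gene lower. The summed level was 441 ± 44.1 CPM in BCSC and 457 ± 68.8 CPM in non-BCSC. UQCRC2 (chromosome 16), a core subunit, had the highest level per length and was measured at 110.4, 115 and 117 CPM in BCSC and 141, 128 and 111 CPM in non-BCSC (log2 fold change −0.15, SE 0.12, adjusted p = 0.365, edgeR). UQCRH (chromosome 1), the hinge protein near cytochrome c1, was nearest to the threshold, which was seen only from its values. It was measured at 30.8, 23.2 and 20.8 CPM in BCSC and 48.3, 35.1 and 30.7 CPM in non-BCSC (log2 fold change −0.61, SE 0.24, adjusted p = 0.0784, edgeR), and the highest BCSC library lay just above the lowest non-BCSC library. UQCRC2 turned to 0.97 when GC content and length were corrected.

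Complex IV, cytochrome c oxidase, had 3 genes higher and 1 lower of the 10 tested (40%, against 29.9% of all genes tested). The summed level was 449 ± 45.3 CPM in BCSC and 392 ± 61 CPM in non-BCSC. COX8A (chromosome 11), the broadly expressed form of subunit 8, was measured at 28.9, 24.5 and 23 CPM in BCSC and 9.99, 6.54 and 10.5 CPM in non-BCSC. All BCSC libraries lay above all non-BCSC libraries, and the mean was 2.83 times higher (log2 fold change 1.5, SE 0.27, adjusted p = 0.00458, edgeR). COX6B1 (chromosome 19), which lies at the dimer interface on the intermembrane side, was measured at 47.1, 28.4 and 23 CPM in BCSC and 21.9, 9.63 and 9.88 CPM in non-BCSC (log2 fold change 1.25, SE 0.38, adjusted p = 0.0353, edgeR). COX6A1 (chromosome 12), also near the dimer interface, was measured at 103, 84.3 and 79.2 CPM in BCSC and 72.7, 43.4 and 35.2 CPM in non-BCSC (log2 fold change 0.82, SE 0.25, adjusted p = 0.034, edgeR). In both genes BCSC replicate 1 and non-BCSC replicate 1 were the highest of their fraction, and the lowest BCSC library stood only slightly above non-BCSC replicate 1.

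COX6C (chromosome 8), a small membrane subunit, went the other way, at 20.1, 13.6 and 15.8 CPM in BCSC and 38, 46.2 and 23 CPM in non-BCSC. All BCSC libraries lay below all non-BCSC libraries, with means of 16.5 ± 3.31 against 35.8 ± 11.8 CPM (log2 fold change −1.11, SE 0.28, adjusted p = 0.018, edgeR). Its count is less certain than most, since 17 pseudogenes drew counts equal to 7.41% of its own, and VPS13B, which overlaps it on the other strand, held 10981 counts over the 6 libraries against 2104 for COX6C. COX7C (chromosome 5), with the highest level per length in the complex over both fractions, was measured at 103, 97.1 and 88.2 CPM in BCSC and 104, 111 and 81.1 CPM in non-BCSC (log2 fold change −0.039, SE 0.14, adjusted p = 0.856, edgeR). COX6C was not called without BCSC library 2 or non-BCSC library 1 or 2 (adjusted p 0.0563 to 0.0872, log2 fold change −0.84 to −1.01), COX6A1 not without BCSC library 1 or 2 or non-BCSC library 2 or 3 (adjusted p 0.0722 to 0.114, log2 fold change 0.63 to 0.88), and COX6B1 not without BCSC library 1 or 2 or non-BCSC library 2 or 3 (adjusted p 0.0658 to 0.144, log2 fold change 0.89 to 1.37). COX8A was called with each library left out. COX6A1 and COX6B1 were not called with the background removed (0.53, adjusted p = 0.137, and 1.0, 0.101, edgeR) or on protein-coding transcripts only (0.69, 0.0922, and 1.1, 0.0939). With GC content and length corrected, COX6C was at −0.11 (adjusted p = 0.835, edgeR), COX8A at 0.69 (0.0581), COX6B1 at 0.77 (0.0678) and COX6A1 at 0.45 (0.143), so that none of the 4 was called, and COX7C turned to 1.13.

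In complex V, 1 of 17 tested genes was higher and 4 were lower in BCSC (29.4%, near the 29.9% of all genes tested). The summed level was 1495 ± 133 CPM in BCSC and 1649.9 ± 169.6 CPM in non-BCSC. ATP5PF (chromosome 21), coupling factor 6 of the peripheral stalk, was measured at 22.3, 26.1 and 21.2 CPM in BCSC and 71.4, 79.6 and 44.6 CPM in non-BCSC. The lowest non-BCSC library was well above the highest BCSC library, and the mean was 2.81 times higher in non-BCSC (log2 fold change −1.49, SE 0.23, adjusted p = 0.00223, edgeR). ATP5F1C (chromosome 10), the gamma subunit that turns inside the catalytic head, had the smallest p of all members. It was measured at 178, 184 and 171 CPM in BCSC and 303, 295 and 286 CPM in non-BCSC, with little spread in either fraction (log2 fold change −0.73, SE 0.092, adjusted p = 0.000961, edgeR). ATP5F1E (chromosome 20), the epsilon subunit of the same central stalk, was measured at 23.8, 20.5 and 20.5 CPM in BCSC and 40.8, 34.5 and 30.1 CPM in non-BCSC (log2 fold change −0.70, SE 0.20, adjusted p = 0.027, edgeR). ATP5MG (chromosome 11), subunit g of the membrane part, was measured at 61.1, 67.5 and 69.9 CPM in BCSC and 113, 93.9 and 79.3 CPM in non-BCSC (log2 fold change −0.53, SE 0.15, adjusted p = 0.0282, edgeR). For these 2 genes, too, the fractions did not overlap, and both changed by less than 2-fold.

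ATP5MC2 (chromosome 12), 1 of 3 genes that encode subunit c of the rotating ring, was higher in BCSC, at 37.5, 33.9 and 39.3 CPM in BCSC and 20.8, 14.2 and 14.2 CPM in non-BCSC. All BCSC libraries lay above all non-BCSC libraries (log2 fold change 1.17, SE 0.22, adjusted p = 0.00579, edgeR). The other subunit c genes encode the same mature protein, and did not pass the test. ATP5MC1 was at 0.91 (adjusted p = 0.10, edgeR) and ATP5MC3 at −0.32 (0.141). ATP5F1B (chromosome 12), the catalytic beta subunit, had the highest level of the complex and was measured at 646, 557 and 467 CPM in BCSC and 540.3, 497 and 387 CPM in non-BCSC (log2 fold change 0.23, SE 0.15, adjusted p = 0.272, edgeR). The alpha subunit gene ATP5F1A, its partner in the catalytic head, was at −0.051 (adjusted p = 0.747, edgeR). ATP5MC1, ATP5MC3 and ATP5F1A were chosen after their values were seen.

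ATP5PF kept its direction and an adjusted p under 0.05 in all 15 alternative analyses, with log2 fold changes from −1.78 to −0.96. It overlaps GABPA on the other strand, which held 7432 counts over the 6 libraries against 3435 for ATP5PF. ATP5F1C and ATP5MC2 were called with each library left out, but with GC content and length corrected ATP5F1C turned to 0.40 (adjusted p = 0.182, edgeR), ATP5F1E to 0.59 and ATP5MG to 0.97 (adjusted p = 0.0177, edgeR). ATP5F1E was not called without BCSC library 1, 2 or 3 or non-BCSC library 1 or 2 (adjusted p 0.0579 to 0.121, log2 fold change −0.53 to −0.77), and ATP5MG not without BCSC library 1 or 2 or non-BCSC library 1 or 2 (adjusted p 0.0917 to 0.121, log2 fold change −0.34 to −0.51). With only protein-coding transcripts summed, ATP5MC2 was at 2.37 with an adjusted p of 0.437 (edgeR).

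**Figure D2:**
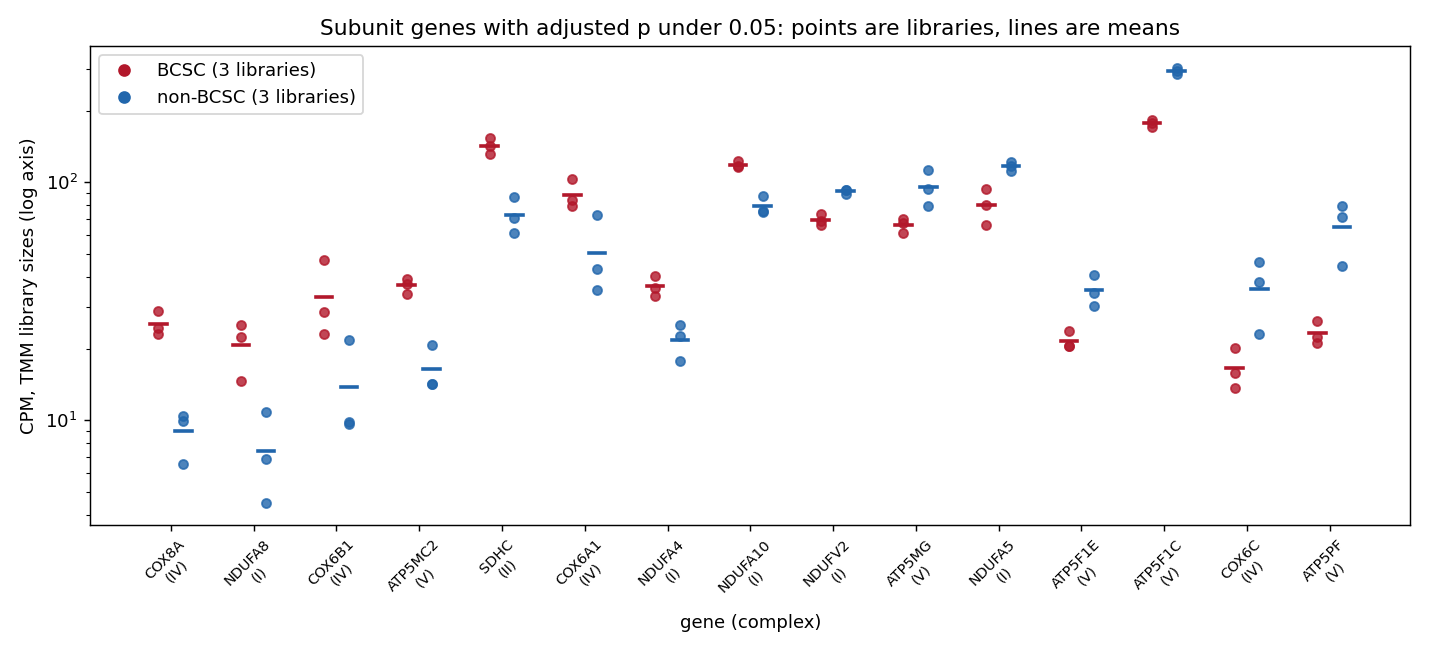
CPM on TMM library sizes (log axis) of the 15 OXPHOS subunit genes with an adjusted p under 0.05, ordered by fold change, with the complex in parentheses. Points are the 3 BCSC (red) and 3 non-BCSC (blue) libraries and lines are group means. In every one of these 15 genes the red points lie on one side of the blue points, closest for COX6B1 and COX6A1 and farthest apart for ATP5PF and COX8A.

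Levels were compared between genes only per length, as TPM (read rates per base scaled to a common sum), computed from the counts and the length of each transcript. ATP5F1B was highest in BCSC, at 829 ± 102 TPM in BCSC and 718 ± 90.5 TPM in non-BCSC, and ATP5F1C was close to it in non-BCSC, at 452 ± 20.1 TPM in BCSC and 725 ± 32 TPM in non-BCSC. In complex I, NDUFV2 was highest, at 215 ± 8.11 TPM in BCSC and 286 ± 7.25 TPM in non-BCSC. In complex II, SDHC was highest, at 330.5 ± 1.41 TPM in BCSC and 173 ± 22.1 TPM in non-BCSC, and SDHA lowest, at 82.6 ± 11.2 TPM in BCSC and 88.5 ± 17.6 TPM in non-BCSC, while SDHB lay at 235 ± 13.9 TPM in BCSC and 222 ± 16 TPM in non-BCSC and SDHD at 138 ± 22.7 TPM in BCSC and 152 ± 9.03 TPM in non-BCSC. In non-BCSC, SDHB stood above SDHC, and SDHC and SDHD did not differ beyond their spread. In complex III, UQCRC2 reached 182 ± 11.5 TPM in BCSC and 199 ± 8.82 TPM in non-BCSC. In complex IV, COX7C reached 344 ± 19.9 TPM in BCSC and 379.6 ± 61 TPM in non-BCSC, with COX6A1 at 427 ± 43.1 TPM in BCSC and 242 ± 85.1 TPM in non-BCSC. The log2 ratio of the mean TPM lay within 0.5 of the fitted log2 fold change except for NDUFA5 (−1.06 in TPM), NDUFS7 (2.15) and ATP5MC2 (1.7).

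**Figure D3:**
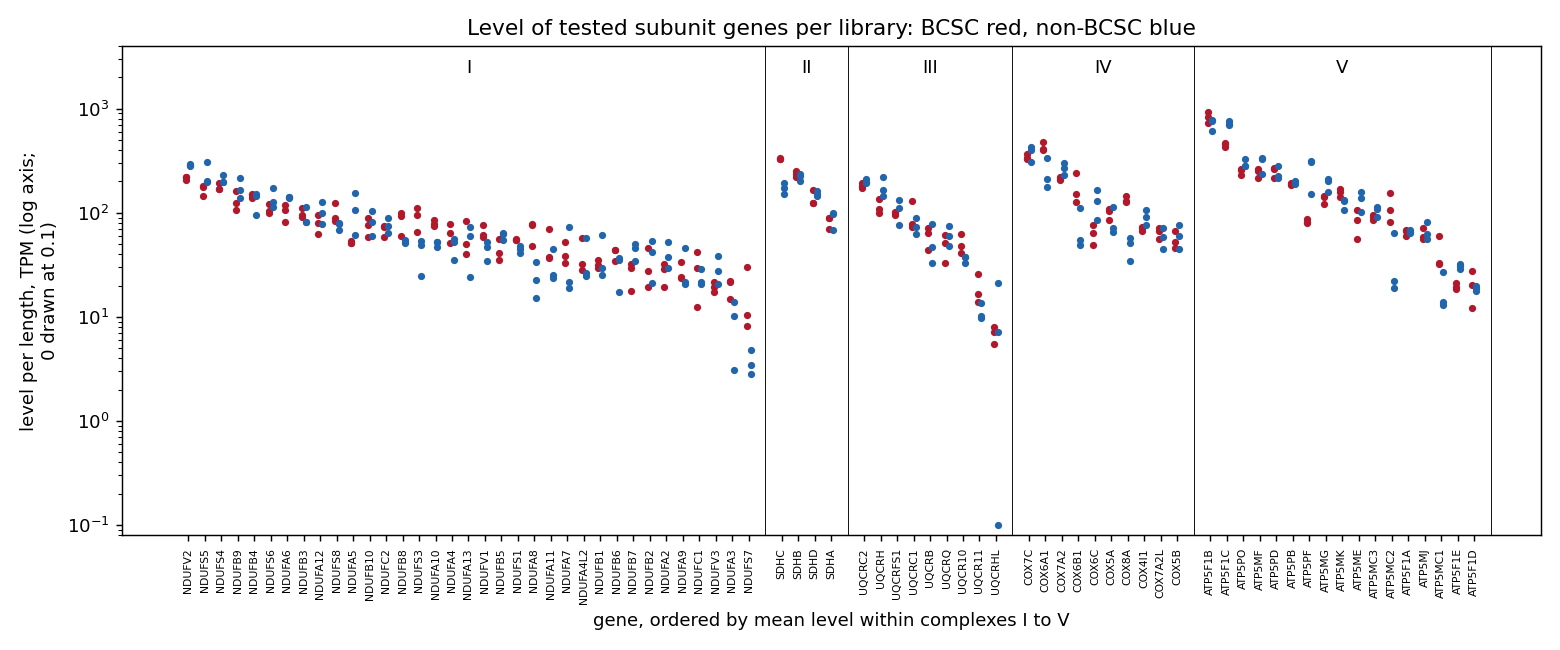
Level per length in TPM (log axis) of tested OXPHOS subunit genes in each of the 3 BCSC (red) and 3 non-BCSC (blue) libraries, ordered by mean level within complexes I to V. ATP5F1B and ATP5F1C stand highest, and UQCRHL and NDUFS7 lowest, with a single library of UQCRHL at 0 drawn at 0.1.

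Tissue-restricted forms and readthrough genes made up the 9 members that were not tested. COX4I2, COX6A2 and NDUFC2-KCTD14 had 0 counts in all 6 libraries. COX6A2 is the heart and muscle form of COX6A1, and COX4I2 the form of COX4I1 known from lung. COX7A1, the muscle form of subunit 7A, had 3 counts in 1 non-BCSC library, COX7B2 had 5 in another, and the testis forms COX6B2 and COX8C had at most 18 and 4. ATP5MF-PTCD1 had at most 14 counts and ATP5MGL at most 12. Among the forms that were tested, NDUFA4L2, a paralog of NDUFA4 known to rise under low oxygen, was measured at 20.9, 11.6 and 9.43 CPM in BCSC and 25.5, 9.1 and 8.54 CPM in non-BCSC (log2 fold change −0.041, SE 0.47, adjusted p = 0.957, edgeR). UQCRHL, an intronless copy of UQCRH, had counts of 32, 15 and 12 in the BCSC libraries against 54, 0 and 12 in non-BCSC (log2 fold change −0.77, SE 1.31, adjusted p = 0.683, edgeR). In non-BCSC the background estimated from olfactory receptor genes exceeded the count of UQCRHL, at 421% of it.

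Several proteins of the same complexes fall outside the symbol rule. The list drawn up for these held 12 tested genes, among them NDUFA4L2, which is also a member by the rule and was not called. Of the 12, 4 were higher in BCSC and 0 lower at an adjusted p under 0.05 in edgeR (33.3%, near the 29.9% of all genes tested). At an unadjusted p under 0.05 there were 6, while DESeq2 gave 4 higher and 1 lower. CYC1 (chromosome 8), cytochrome c1 of complex III, was measured at 91.5, 61.9 and 47.7 CPM in BCSC and 41.1, 28 and 31.2 CPM in non-BCSC (log2 fold change 1.0, SE 0.25, adjusted p = 0.0162, edgeR). CYCS (chromosome 7), cytochrome c itself, was measured at 223, 238 and 289.7 CPM in BCSC and 189.8, 167 and 188 CPM in non-BCSC (log2 fold change 0.46, SE 0.12, adjusted p = 0.020, edgeR). HIGD2A (chromosome 5), which binds complex IV during supercomplex formation, was measured at 37.3, 29.9 and 28.9 CPM in BCSC and 15.5, 10.8 and 11.2 CPM in non-BCSC (log2 fold change 1.36, SE 0.24, adjusted p = 0.00427, edgeR). HIGD1A, a related protein, was at 0.45 (adjusted p = 0.0319, edgeR). In CYC1, CYCS, HIGD2A and HIGD1A all BCSC libraries lay above all non-BCSC libraries. HIGD2A was called in all 15 alternative analyses, whereas CYC1 turned to −0.40 with GC content and length corrected. CYC1 was not called without BCSC library 1 or non-BCSC library 2 or 3 (adjusted p 0.0579 to 0.0617, log2 fold change 0.71 to 0.98), CYCS not without BCSC library 3 or non-BCSC library 2 (adjusted p 0.0528 to 0.0621, log2 fold change 0.34 to 0.45), and HIGD1A not without BCSC library 1 or 3 or non-BCSC library 1 or 2 (adjusted p 0.0564 to 0.0959, log2 fold change 0.36 to 0.47) nor with RLE size factors (0.35, adjusted p = 0.0748, edgeR). With the background removed none of the 3 was called, at 0.75 for CYC1 (adjusted p = 0.0565, edgeR), 0.19 for CYCS (0.332) and 0.18 for HIGD1A (0.396). Nor were they on protein-coding transcripts only, at 0.23 (0.948), 0.31 (0.168) and 0.29 (0.211) in the same order. With 10 counts required in every library, CYCS was at 0.31 (0.0581) and HIGD1A at 0.30 (0.123).

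The X-linked subunit genes NDUFA1 (−0.37, adjusted p = 0.547, edgeR), NDUFB11 (0.90, 0.0759) and COX7B (−0.56, 0.0745) did not pass. Neither did NDUFAB1 (−0.36, 0.145), ATP5IF1 (0.16, 0.781), DMAC2L (0.16, 0.767) and STMP1 (0.089, 0.668). The 37 transcripts of mitochondrial DNA on file had 0 counts in total. The subunits encoded there, among them core subunits of complexes I and IV, thus could not be set beside their nuclear partners.

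At the level of single transcripts, 239 of the 804 transcripts of the subunit genes were tested and 232 had 0 counts in all libraries. Over all 46176 transcripts tested, 0.593% were higher and 0.191% lower past both thresholds (0.784% in all), and 0.606% were higher at an adjusted p under 0.05 alone, and replicates varied more than in the gene sums, with a biological coefficient of variation of 1.02 against 0.453. In edgeR, 1 subunit transcript was higher and 0 were lower in BCSC, 27 had an unadjusted p under 0.05, and DESeq2 gave 11 higher and 3 lower. The call was NDUFA5-210 (ENST00000492549.6, a retained-intron transcript), with counts of 534, 536 and 1121 in BCSC and 0 in all 3 non-BCSC libraries. Against a floor of 3 counts per non-BCSC library it was at least 161-fold higher (adjusted p = 0.047, edgeR), and it was not called with any 1 library left out. It moved against the sum of its gene, whose log2 fold change was −0.54.

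The transcripts of NDUFA5 were assigned differently in nearly every library. The coding transcript NDUFA5-201 had counts of 301, 402 and 243 in BCSC against 1088, 0 and 472 in non-BCSC, while NDUFA5-218, also coding, had 35, 98 and 100 against 29, 934 and 420. The retained-intron transcript NDUFA5-221 had 0, 2 and 0 against 100, 158 and 161. Transcripts annotated as protein coding held 30.8% of the NDUFA5 count in BCSC and 78.8% in non-BCSC. The next transcripts were chosen after their values were seen. ATP5MK-204, a coding transcript, was found only in BCSC, at least 41.9-fold higher (adjusted p = 0.0503, edgeR), and NDUFS3-201 had counts of 724, 299 and 396 in BCSC against 58, 82 and 73 in non-BCSC.

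**Figure D4:**
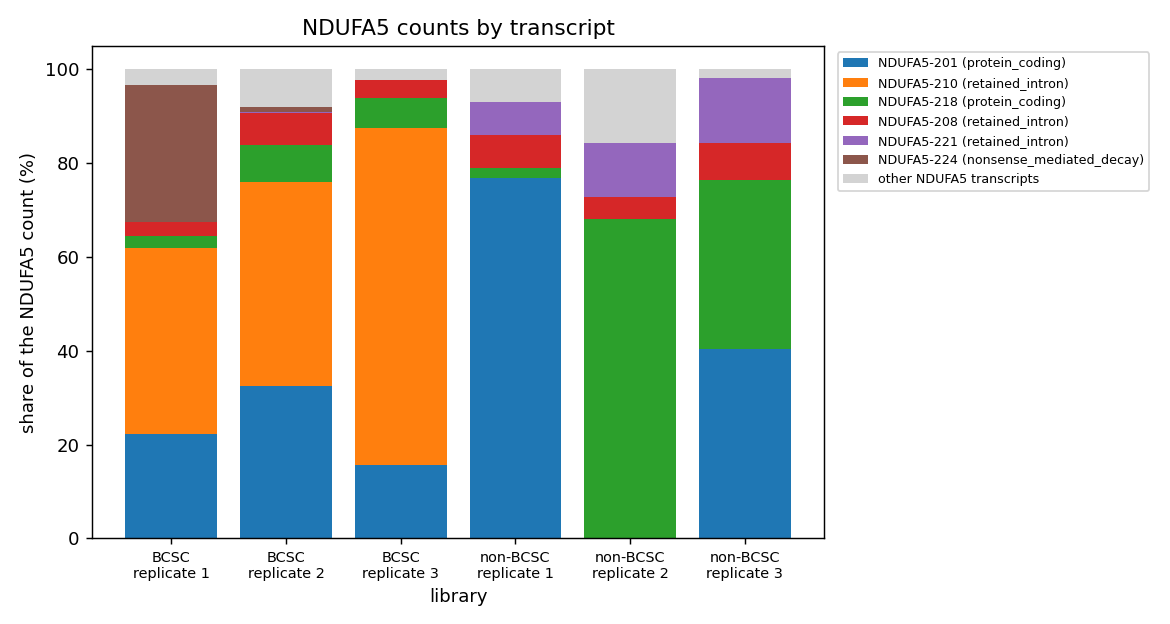
Share of the NDUFA5 count (%, y axis) on each of its 6 most counted transcripts in the 3 BCSC and 3 non-BCSC libraries, with the annotated type in parentheses and the remaining transcripts in grey. The retained-intron transcript NDUFA5-210 appears in all BCSC libraries and in none of the non-BCSC libraries, while NDUFA5-201 and NDUFA5-218 trade places among the non-BCSC libraries.

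Over all subunit genes, transcripts annotated as protein coding held 85.3% ± 1.5 of what was counted in BCSC and 88.7% ± 1.87 in non-BCSC (SD, n = 3). The libraries overlapped (86.9, 84.0 and 84.9% against 89.2, 90.2 and 86.6%), and a two-sided exact permutation test gave p = 0.2, where 20 regroupings allow no p below 0.1. Retained-intron transcripts held 10.4% ± 1.68 and 8.83% ± 1.72. Transcripts marked for nonsense-mediated decay held 1.93% ± 0.351 in BCSC and 0.511% ± 0.106 in non-BCSC without overlap, against 3.19% and 3.51% over all protein-coding genes tested, a share that was chosen after it was seen and not tested.

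Fold changes of the subunit genes were related to their GC content. Across the 76 genes, which share the 6 libraries and are not independent, Spearman's rho was 0.36 and Pearson's r 0.37, and over all 20442 genes rho was 0.54. The 27 subunit genes under 45% GC had a median log2 fold change of −0.15, with 1 higher and 6 lower. The 35 genes from 45 to 55% had a median of −0.0037, with 6 higher and 1 lower, and the 14 above 55% had a median of 0.41, with 1 higher and 0 lower at an adjusted p under 0.05 in edgeR. Over all genes the same bins gave −0.50, 0.16 and 1.06, so the subunit genes moved less than the rest at both ends. The 8 higher genes had a median GC content of 51.4% and the 7 lower genes one of 40.6%. The part of GC content in the calls was not tested beyond the correction, which moved the median of all genes from −0.050 to 0.26 and that of the subunit genes to 0.41. With it rho became −0.068 over all genes but −0.70 over the subunit genes, so that the relation in these genes changed sign.

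**Figure D5:**
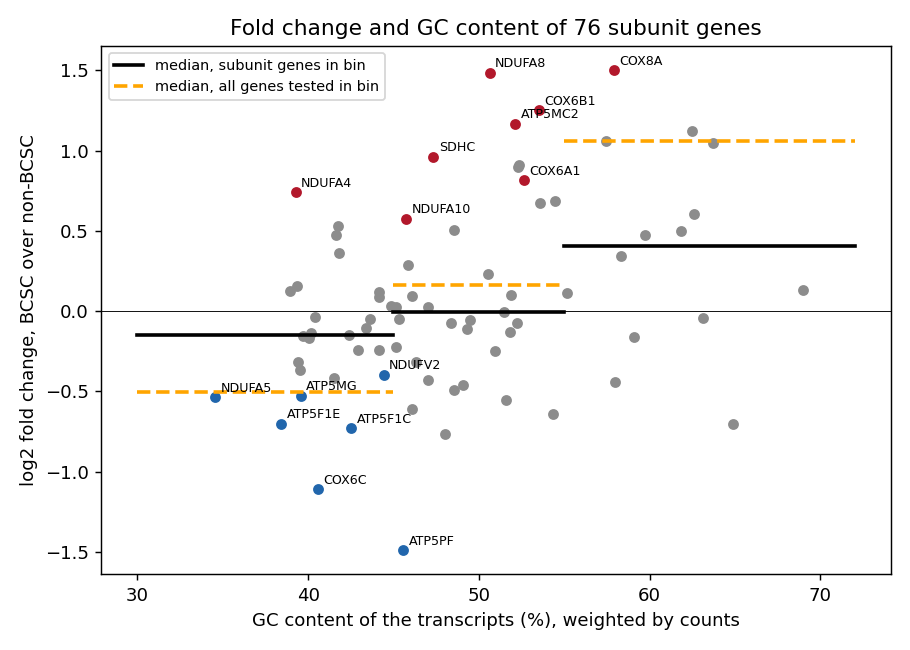
Log2 fold change (BCSC over non-BCSC, y axis) against GC content (%, x axis) of the 76 tested OXPHOS subunit genes, with genes higher in red and lower in blue at an adjusted p under 0.05. Black lines are the medians of the subunit genes under 45%, from 45 to 55% and above 55% GC (−0.15, −0.0037 and 0.41) and orange dashed lines those of all genes tested (−0.50, 0.16 and 1.06).

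The machinery around the complexes was read from the same fit. Of 49 tested assembly factors, 6 were higher and 4 lower (20.4%, against 29.9% of all genes tested, the share to set beside each list that follows), with a median log2 fold change of 0.12. COA8, which protects complex IV assembly, was lower, at 16.6, 14 and 17.8 CPM in BCSC and 45.8, 40.6 and 43.6 CPM in non-BCSC (log2 fold change −1.42, SE 0.19, adjusted p = 0.00127, edgeR). ACAD9, a complex I assembly factor, was higher, at 59.6, 46.1 and 44.3 CPM in BCSC and 20.7, 22.8 and 20.1 CPM in non-BCSC (log2 fold change 1.24, SE 0.19, adjusted p = 0.00223, edgeR). NDUFAF3, another complex I assembly factor, was higher too, at 17.5, 11.1 and 11.3 CPM in BCSC and 4.13, 2.21 and 2.49 CPM in non-BCSC (log2 fold change 2.17, SE 0.41, adjusted p = 0.00573, edgeR). COA8 and ACAD9 were called in all 15 alternative analyses, and NDUFAF3 in 14, the exception being the sum of protein-coding transcripts only (adjusted p = 0.213, edgeR).

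Among 17 regulators of mitochondrial biogenesis, 2 were higher and 3 lower (29.4%). PPRC1, a coactivator of the PGC-1 family, was higher, at 105, 66.8 and 79 CPM in BCSC and 24.3, 23.3 and 22.8 CPM in non-BCSC (log2 fold change 1.83, SE 0.19, adjusted p = 0.000405, edgeR), and remained so in all 15 alternatives. PPARGC1A, which encodes PGC-1 alpha of the same family and was chosen after its values were seen, was lower, at 74.2, 65 and 87.5 CPM in BCSC and 101, 97.3 and 107 CPM in non-BCSC (log2 fold change −0.43, SE 0.14, adjusted p = 0.0407, edgeR). POLRMT, the mitochondrial RNA polymerase, was measured at 18.6, 6.91 and 11.3 CPM in BCSC and 2.97, 4.33 and 3.84 CPM in non-BCSC (log2 fold change 1.72, SE 0.44, adjusted p = 0.0184, edgeR), but was not called without BCSC library 1 (adjusted p 0.107, log2 fold change 1.31), with GC content and length corrected (0.041) or on protein-coding transcripts only (1.59, adjusted p = 0.061, edgeR). MTERF1, which acts on transcription of mitochondrial DNA, was lower, at 19, 25.3 and 24 CPM in BCSC and 38.5, 45.3 and 39 CPM in non-BCSC (log2 fold change −0.85, SE 0.19, adjusted p = 0.0119, edgeR), and turned to 0.40 with the correction. It was not called without non-BCSC library 2 (adjusted p 0.0535, log2 fold change −0.72).

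Of 17 genes of the citric acid cycle and of pyruvate dehydrogenase, 5 were higher and 1 lower (35.3%), with a median of 0.087. The pyruvate dehydrogenase genes PDHA1, PDHB, DLAT and PDHX were not among those called. CS, citrate synthase, was measured at 319, 289 and 262 CPM in BCSC and 204, 154 and 139 CPM in non-BCSC (log2 fold change 0.81, SE 0.15, adjusted p = 0.00498, edgeR) and was called in all 15 alternatives. OGDH, the first enzyme of the oxoglutarate dehydrogenase complex, was at 1.14 (adjusted p = 0.00404, edgeR), and 0.39 with GC content and length corrected. DLD, which serves that complex and pyruvate dehydrogenase, was at −0.81 (adjusted p = 0.000773, edgeR), and turned to 0.48. Of 16 glycolytic genes, 5 were higher and 1 lower (37.5%), with a median of 0.42 and a summed level of 9316 ± 2379.7 CPM in BCSC and 7755 ± 1778 CPM in non-BCSC. TPI1 was at 0.96 (adjusted p = 0.00472, edgeR) and LDHA, which makes lactate, at 0.63 (0.0078). With GC content and length corrected TPI1 was at 0.33 (adjusted p = 0.209, edgeR), and with the background removed LDHA was at 0.37 (0.0569), so that neither was called. PGK1 was at −0.66 (0.00435) and moved to 0.0023 with the correction. The summed glycolytic levels of the fractions overlapped.

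Ribosomal proteins, which like OXPHOS subunits are made in balanced amounts for large complexes, gave 13 higher and 5 lower of 78 tested for the mitochondrial ribosome (23.1%, median 0.32) and 13 higher and 21 lower of 81 for the cytosolic ribosome (42%, median −0.034). The subunit genes varied less between libraries of 1 fraction than genes at large. Their median coefficient of variation was 14.1% in BCSC and 20.6% in non-BCSC, against 24.9% and 30.2% over all genes tested, which include many with few counts.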

How the data were processed

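Total RNA of 3 BCSC and 3 non-BCSC libraries, grouped by sample title, was analysed from the transcript table. Each value deposited by the authors is an estimated count per transcript, written as a whole number without scaling or a filter. The submitters' processing notes name HISAT2, featureCounts, DESeq2 and hg38, while the study's methods give hg19 for the alignment. Gene coordinates are therefore not printed, and promoters carry their own build. The step that gave transcript counts, and whether strand was used, are not given in the sources used here. The dUTP protocol keeps strand.

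Of 252618 transcripts, 249787 matched GENCODE release 44 by identifier, 2827 (0.271% of the counts) did not, and 4 assembler-made rows were left out. Counts were summed per gene. The fractions were compared in edgeR 4.0.16 under R 4.3.3 (TMM scaling, filterByExpr, robust quasi-likelihood test, no covariate), with p-values adjusted by Benjamini-Hochberg over all genes or transcripts tested. The thresholds were an adjusted p under 0.05 and, where stated, a log2 fold change beyond 1. All adjusted p-values of genes come from this fit unless another setting is named. Single values were compared by exact permutation (scipy 1.17.1). The fit was checked on simulated counts.

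The analysis was repeated with DESeq2 1.42.0, with RLE size factors, without a count filter, with a minimum of 10 counts per library, with the replicate number as a block, with each library left out, and with a loess correction for GC content and length (span 0.3), removal of a background from 391 olfactory receptor genes, thinning to the smallest library, and sums of protein-coding transcripts only. A tested member is not reported here by name and is left out of the plots that name genes. The members, lists and alternatives were chosen with earlier results of these data known. Genes named by rule were all SDH genes, per complex up to 4 higher and 4 lower with the smallest p among those with an adjusted p under 0.05 and a mean of at least 50 counts, the isoforms and the subunits outside the symbol rule, the highest and lowest level per length, and the 3 genes with the smallest p of each other list.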

Additional observations from a re-analysis of the deposited data

How the results depend on the processing

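No source gives the step that assigned reads to transcripts, so sums per gene are firmer than single transcripts, whose biological coefficient of variation was 1.02. Depth was lower in non-BCSC, yet thinning all libraries to the smallest kept all 15 calls on subunit genes. RLE size factors, DESeq2, the filter of 10 counts in every library and the replicate block kept all 15 as well, and no filter kept 13 (not NDUFV2 and ATP5F1E). Leaving out 1 library kept between 6 and 12, fewest without non-BCSC replicate 2. Of 689 values of single genes under the alternatives, 584 kept their side of the threshold, 78 fell short of it, 14 passed it newly and 13 turned. A change of direction was counted as a turn only where the gene was called in the main or the alternative fit. The 584 thus include uncalled genes whose sign changed. Where no cause is given, the cause was not tested.

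The GC and length correction kept 6 of the 15 calls and turned 5. It gave 11 genes higher and 5 lower past both thresholds, 23 higher at an adjusted p under 0.05, and medians of 0.28, 0.99, 0.25, 0.57 and 0.59 in complexes I to V. The named genes that turned under it, with a call in the main fit or in this one, were NDUFA5 (0.76), NDUFV2 (0.36), ATP5F1C (0.40), ATP5F1E (0.59), ATP5MG (0.97), SDHD (1.29), UQCRC2 (0.97), COX7C (1.13), MTERF1 (0.40), PGK1 (0.0023), CYC1 (−0.40) and DLD (0.48). With the background removed, 10 of the 15 calls were kept (not NDUFA10, NDUFA8, NDUFA4, COX6A1 and COX6B1), 1 gene was higher past both thresholds, and 3 were higher and 19 lower at an adjusted p under 0.05, with medians of −0.23, −0.27, −0.38, −0.11 and −0.45. It moved the median of all genes tested to 0.13, over fewer genes. Protein-coding transcripts alone kept 11 calls and gave 4 lower past both thresholds, medians of −0.33 (I), −0.12 (II), −0.071 (IV) and −0.32 (V), and −0.37 for NDUFA10. The filter of 10 counts gave 14 lower at an adjusted p under 0.05 and medians of −0.14 (II) and −0.31 (V). DESeq2 moved complex IV to −0.14, and no filter moved complex V to 0.022, where members near 0 counts enter the median. RLE size factors moved the median of all genes to −0.14.

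The replicate numbers were not shown to pair the libraries. Deviations of same-numbered libraries correlated at 0.18, 0.01 and 0.22. BCSC replicates 1 and 3 correlated best with the non-BCSC library of the same number, and BCSC replicate 2 with non-BCSC replicate 1 (0.054). With the replicate block 12 subunit genes were higher and 10 lower at an adjusted p under 0.05, the median of complex III was 0.13, and 0 transcripts were higher.

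With 1 library left out, genes past both thresholds ran from 2 to 6 higher and from 1 to 2 lower, and genes at an adjusted p under 0.05 from 4 to 11 higher and from 2 to 5 lower. Medians ran from −0.16 to 0.26 in complex I, −0.083 to 0.15 in II, −0.22 to 0.27 in III, 0.069 to 0.20 in IV and −0.21 to −0.059 in V. Transcripts higher were 0 in each of these fits, and the difference in the protein-coding share ran from −4.44 to −2.63 percentage points. Transcripts past both thresholds were 11 higher and 3 lower with DESeq2 and 1 lower with the filter of 10 counts.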
